A study of Drosophila melanogaster with 2 samples.

Results

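The mitochondrial ribosomal protein genes of Drosophila melanogaster were taken as the protein-coding genes whose symbol begins with mRpL (large subunit) or mRpS (small subunit), 73 of the 13968 protein-coding genes annotated on the 7 chromosome arms of the dm6 assembly. Of these 73 genes, here called members, 47 carry large-subunit and 26 small-subunit symbols. The data were chromatin immunoprecipitation followed by sequencing (ChIP-seq) of a CG4730-eGFP fusion protein, precipitated with an antibody to GFP from transgenic whole embryos collected over 0 to 24 h, with chromatin sonicated to 200 to 800 bp. There was 1 group, in 2 biological replicates from a single transgenic strain, and both replicates carried the fusion; the control library was not analysed here. A member was counted as bound when the summit of a peak in the authors' pooled thresholded set lay within 500 bp of any of its annotated transcript starts.

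Mitochondrial ribosomes translate the few proteins encoded by mitochondrial DNA, which in the fly are subunits of the oxidative phosphorylation complexes. All of their proteins are encoded in the nucleus, made on cytoplasmic ribosomes and imported, so the promoters described here are nuclear promoters. The large subunit forms the peptide bonds and holds the exit tunnel, and the small subunit reads the messenger RNA. A divergent promoter is one in which 2 genes start close together on opposite strands and are transcribed away from each other.

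Pooling gave 3571 thresholded peaks, 3551 of them on the 7 chromosome arms. The replicates' own thresholded sets held 2309 and 2434 peaks, and the unthresholded ranked lists held 143047 peaks for the pool, 121002 for replicate 1 and 103412 for replicate 2. Each peak carries a signal value from the authors' processing whose unit is not stated, so signals were compared only within a list. The files give no read depth, and in whole embryos binding in fewer cells and weaker binding per cell cannot be told apart.

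Of the 73 members, 18 were bound (24.7%, Wilson 95% interval 16.2 to 35.6%), against 13.7% of all coding genes. The interval covers counting error only. By subunit, 10 of 47 large-subunit genes (21.3%, 11.99 to 34.9%) and 8 of 26 small-subunit genes (30.8%, 16.5 to 49.99%) were bound, and these intervals overlap. The 18 bound members used 18 strongest peaks and 1 further weak one, and no 2 members shared a promoter: the closest pair, mRpL3 and mRpS30, start 24799 bp apart.

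Sequence is shown for the 101 bp centred on the summit at 7 bound members. All 18 such windows held more A and T than the sequence 500 bp to either side, though by only 4.95 percentage points at mRpL4. Among the 7 shown are 5 of the 7 strongest peaks, the windows richest in A and T (mRpL20 and mRpL39) and the poorest one shown (mRpL4). Each is written 5′ to 3′ on the member's strand, from the RefSeq Release 6 sequence of the fly genome, which has the dm6 coordinates, and runs of at least 8 A or T bases are in capitals.
mRpS10 (chr3R:15229481-15229581, plus strand): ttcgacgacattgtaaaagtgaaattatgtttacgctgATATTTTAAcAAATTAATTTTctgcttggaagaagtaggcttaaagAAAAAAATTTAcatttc
mRpS23 (chr2L:13835402-13835502, minus strand): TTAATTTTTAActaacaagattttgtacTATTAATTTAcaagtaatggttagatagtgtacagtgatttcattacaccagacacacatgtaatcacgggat
mRpL23 (chr3L:2373544-2373644, minus strand): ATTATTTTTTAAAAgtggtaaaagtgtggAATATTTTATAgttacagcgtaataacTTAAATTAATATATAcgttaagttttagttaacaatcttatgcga
mRpL20 (chr3L:13018087-13018187, minus strand): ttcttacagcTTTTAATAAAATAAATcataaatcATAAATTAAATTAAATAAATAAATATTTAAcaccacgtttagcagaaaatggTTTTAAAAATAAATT
mRpL24 (chr2L:4945447-4945547, minus strand): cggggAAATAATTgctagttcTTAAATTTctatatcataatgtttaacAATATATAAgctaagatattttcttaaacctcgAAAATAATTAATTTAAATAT
mRpL39 (chr3L:14999818-14999918, minus strand): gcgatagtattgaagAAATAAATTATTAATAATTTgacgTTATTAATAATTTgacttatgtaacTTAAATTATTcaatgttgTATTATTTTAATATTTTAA
mRpL4 (chr2L:16329193-16329293, minus strand): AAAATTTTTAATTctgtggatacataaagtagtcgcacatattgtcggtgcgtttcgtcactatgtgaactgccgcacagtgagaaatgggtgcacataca

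For contrast, the same windows are given around the ranked-list summits of mRpS18B and mRpL16, members that were not bound. The window at mRpS18B held 76.2% A and T, within the range of the bound members, and that at mRpL16 held 54.5% and no capital run.
mRpS18B (chr2L:20097296-20097396, minus strand): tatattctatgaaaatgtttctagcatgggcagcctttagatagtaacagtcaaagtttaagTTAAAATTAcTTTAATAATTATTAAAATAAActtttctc
mRpL16 (chrX:1890139-1890239, plus strand): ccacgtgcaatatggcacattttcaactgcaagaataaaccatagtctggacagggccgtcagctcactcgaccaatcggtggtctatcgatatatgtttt

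Signal at the bound members was divided into a strong and a weaker set at the gap between 337 and 177. A wider gap lay inside the strong set, between 1140 and 503. The strong set held 7 members with pooled signals from 337 to 1740, and the other 11 had pooled signals from 68.0 to 177. Strong peaks were more frequent than at other coding promoters: 4 of the 18 peaks (22.2%) were among the 20 strongest of the 3551 peaks on the arms, against 10 of 1423 other peaks within 500 bp of a coding start (0.703%). Among the 300 strongest were 7 of the 18 (38.9%), against 12.8% of the other promoter peaks. The cutoffs of 20 and 300, also used below, were not part of the planned comparison, which was of medians. They lie just past the ranks of mRpL23 (17) and mRpL24 (275), and the next member, mRpL32, ranked 857. The medians were closer, 156 for the members and 128 for the other promoter peaks. The 2 groups were not selected alike, here and in the peak comparisons below. Each member gave its strongest peak only, which left out a peak of 16.6 at mRpS26. The other group held every promoter peak not at a member, down to a signal of 2.48. These values describe the peaks, with no test.

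The strongest member peak was at mRpL41, which encodes a large-subunit protein that in mammals has no bacterial counterpart. It had a signal of 868 in replicate 1 and 883 in replicate 2 (876 ± 10.9, SD, n = 2), and with 1740 in the pool it ranked 5 of all peaks on the arms. Next came mRpS10, encoding the mitochondrial form of the conserved small-subunit protein S10, with 733 and 707 (720 ± 18.4, SD, n = 2) and a pooled signal of 1429. For mRpS23, whose small-subunit product is absent from bacteria, the replicates gave 629 and 622 (626 ± 4.90, SD, n = 2) and the pool 1252. At mRpL23, encoding a conserved protein that sits at the exit of the peptide tunnel in bacteria, they gave 557 and 583 (570 ± 18.3, SD, n = 2) and the pool 1140. These 4 values followed the same order in both replicates, and neighbours in that order differed by more than their replicate SDs.

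The next 3 members of the strong set lay well below those 4. For mRpL20, whose bacterial counterpart acts in large-subunit assembly, replicates 1 and 2 gave 241 and 264 and the pool 503. For mRpS2, of the small subunit, the values were 261 and 211, with 470 in the pool. The order of mRpL20 and mRpS2 was opposite in the 2 replicates, so they do not differ beyond their spread. Signals at mRpL24, whose bacterial counterpart starts large-subunit assembly, were 178 and 158, with 337 in the pool.

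Among the weaker members, 5 had pooled signals from 133 to 177. At mRpL32, encoding a large-subunit protein whose precursor is cut by a mitochondrial protease in yeast and mouse, the replicates gave 89.4 and 94.0 and the pool 177. For mRpL39 they gave 68.2 and 86.7 (pool 162), and for mRpL37 85.1 and 76.1 (pool 151). Both encode large-subunit proteins that are specific to mitochondria in mammals. At mRpL34 they gave 89.3 and 57.0 (pool 140), and at mRpS6 72.8 and 60.1 (pool 133); both proteins have bacterial counterparts. The order of these 5 members in the pool was not kept in either replicate.

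The last 6 members lay near the threshold, and for 5 of them at least 1 replicate did not reach its own. At mRpL4, whose bacterial counterpart lines the exit tunnel, replicate 1 gave 46.8 and replicate 2 48.7, but the peak entered the own set of replicate 1 only. For mRpS7, encoding a conserved protein of the small-subunit head, values of 43.5 and 54.9 sufficed in both. At mRpS22, whose product is specific to mitochondria in mammals, values of 46.8 and 32.5 put the gene in the set of replicate 1 only. mRpS26, mRpL18 and mRpS24 were in neither own set. Their replicate values were 46.2 and 30.1 for mRpS26, 38.6 and 36.9 for mRpL18, and 25.6 and 49.6 for mRpS24, the last with the largest disagreement between replicates of all 18. Across the 18 members the replicates' signals had a Spearman correlation of 0.930, given as a description, and over the 13 members present in both own sets the ratio of replicate 1 to replicate 2 ran from 0.787 to 1.57.

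**Figure D1:**
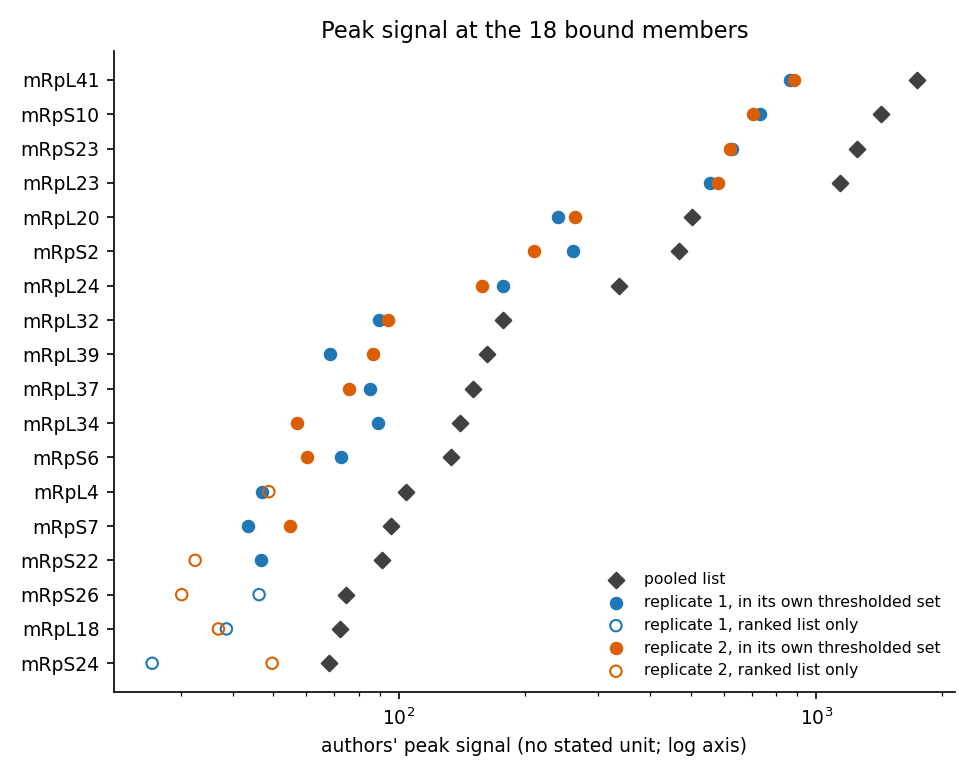
Peak signal at each of the 18 bound members (x axis, log scale, no stated unit), in the pooled list (diamonds) and in each replicate's list (circles; open where the peak was not in that replicate's own thresholded set). The replicate circles of the 4 strongest members nearly coincide, and open circles occur only at the 5 members mRpL4, mRpS22, mRpS26, mRpL18 and mRpS24; pooled values are on their own scale and are not to be compared with replicate values.

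The threshold acts on the irreproducible discovery rate (IDR), a measure of how well a peak's rank repeats, and admits a −log10 IDR of at least 2 in these lists. Just inside were mRpS26 at 2.32, mRpL18 at 2.45 and mRpS24 at 2.47, and just outside was mRpS18B, of the small subunit, at 1.70. Ordered by signal, the 5 strongest unbound members were mRpL53 with a pooled ranked signal of 67.5, mRpS18B with 54.8, mRpL16 with 51.7, mRpS18A with 47.7 and mRpL10 with 46.9. The value at mRpL53 nearly equalled the 68.0 of mRpS24, but mRpL53 had a peak in replicate 2 only (43.4) and a pooled −log10 IDR of 0.184. mRpS18B had 32.7 and 25.8 in the replicates, and mRpL16 had 33.3 and 21.5. The lowest bound and the highest unbound members were thus next to each other in signal.

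Across all 55 unbound members, 42 had some summit of the pooled ranked list within 500 bp, with a median signal of 29.0 and a range of 6.05 to 67.5. For unbound coding genes the median was 29.3. The share with any pooled ranked peak was 76.4% for unbound members and 74.6% for unbound coding genes. The other 13 members had no pooled ranked summit within 500 bp: mRpL3, mRpL9, mRpL12, mRpL13, mRpL15, mRpL43, mRpL52, mRpS5, mRpS11, mRpS25, mRpS30, mRpS33 and mRpS35. In the replicates' ranked lists, mRpL12 had weak summits in both (13.0 and 10.9), and mRpL3 (14.5), mRpL43 (13.7), mRpS11 (10.6) and mRpS30 (9.22) had one in replicate 2 only. One of the 13, mRpS25, had a pooled thresholded summit of signal 86.4 at 583 bp upstream, outside the 500 bp window.

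By chromosome arm, bound members were 5 of 12 on 2L, 3 of 12 on 2R, 5 of 17 on 3L and 5 of 21 on 3R. Of all coding genes on these arms, in the same order, 13.7, 12.9, 15.5 and 13.8% were bound. On the X, 0 of 11 members were bound, and 12.8% of coding genes there were bound. The count of 0 allows a share of up to 27.3%, taken as 3 divided by 11 and not as a Wilson limit. mRpL16 had the strongest ranked signal of the X-linked members.

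**Figure D2:**
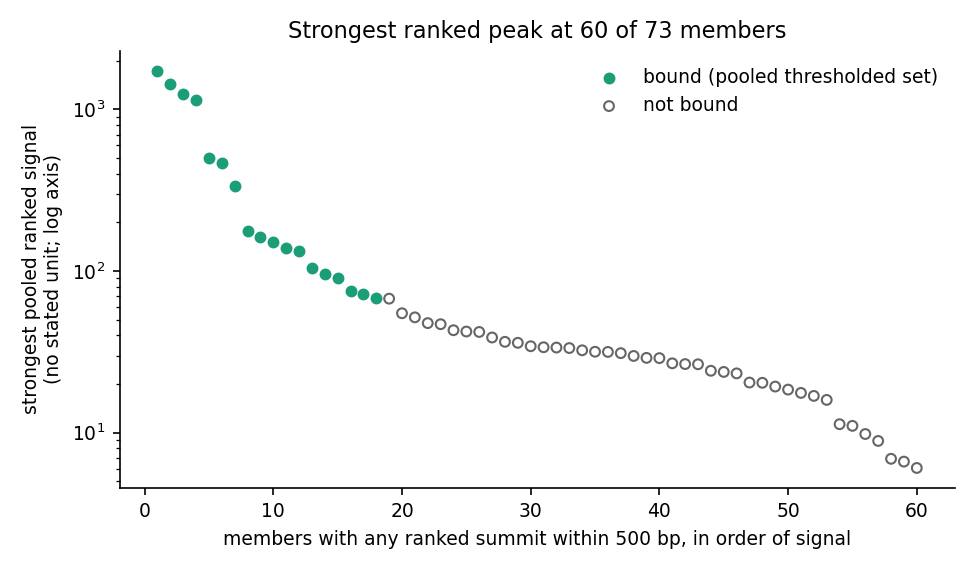
Strongest pooled ranked signal within 500 bp (y axis, log scale, no stated unit) of the 60 members that had one, in falling order. The 18 bound members (filled) run from 1740 down to 68.0, with steps between 1140 and 503 and between 337 and 177. The 42 unbound members (open) continue without a gap from 67.5 to 6.05.

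Divergent promoters were a general feature of the family, bound or not. A coding gene started on the opposite strand 0 to 500 bp upstream of 53 of the 73 members (72.6%, Wilson 95% interval 61.4 to 81.5%), against 27.3% of all coding genes. Of the bound members, 16 of 18 had such a partner (88.9%, 67.2 to 96.9%), and of the unbound members 37 of 55 (67.3%, 54.1 to 78.2%), with overlapping intervals. The order turned with a partner limit of 250 bp, which left 22.2% of bound and 38.2% of unbound members with a partner. Over all coding genes, bound genes were also more often divergent, 55.7% against 22.8% of unbound genes.

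When members were set beside other coding genes of the same arrangement at the 500 bp limit, the bound shares were close. Of members with a divergent partner, 16 of 53 were bound (30.2%, 19.5 to 43.5%), against 1048 of 3762 other divergent coding genes (27.9%, 26.4 to 29.3%). Among members without one, 2 of 20 were bound (10%, 2.79 to 30.1%), against 8.34% of the other 10133 coding genes. This comparison was added with the bound counts known, and it depended on the limit. With partners within 250 bp, 16% of divergent members were bound against 24.2% of all divergent coding genes, and 14 of 48 other members (29.2%) against 11.9%. With partners within 1000 bp, 31.0% of divergent members were bound against 24.8%, and 0 of the other 15 against 7.39%. The share of strong peaks among the members was similar within the arrangement: 6 of the 16 peaks at divergent bound members (37.5%) were among the 300 strongest, against 74 of 572 other peaks at divergent coding starts (12.9%). For the 20 strongest the counts were 3 of 16 and 4 of 572.

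**Figure D3:**
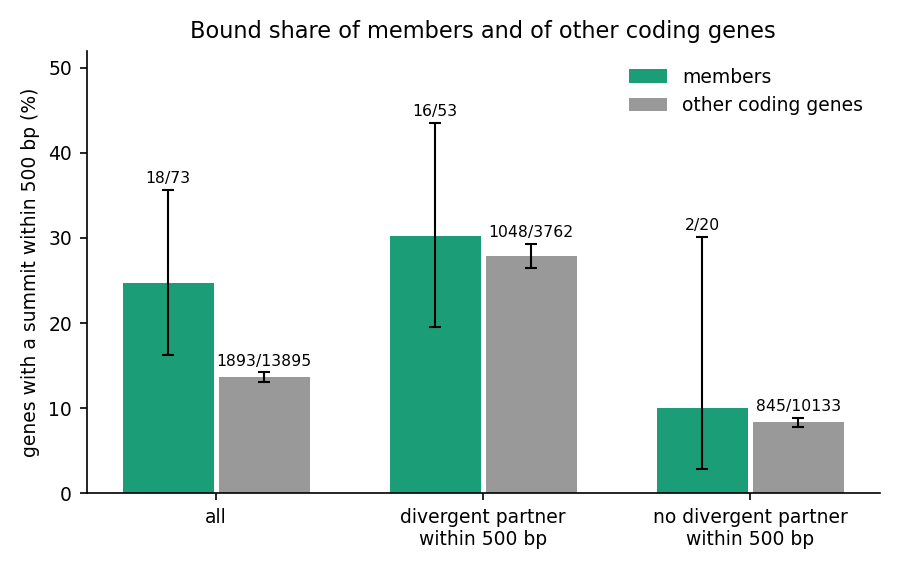
Percentage of genes with a pooled thresholded summit within 500 bp (y axis), for members and for the other coding genes, over all genes and split by a divergent coding partner within 500 bp; bars carry Wilson 95% intervals and counts. The members' share is above that of other coding genes over all genes (24.7 and 13.6%), and within each arrangement at this limit the intervals overlap (30.2 and 27.9%; 10 and 8.34%).

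The median distance to the partner differed between bound and unbound members, but the distances overlapped. Quartiles were 248 and 405 bp for bound and 57 and 395 bp for unbound members, so the upper quartiles were close. The median gap between the starts was 337.5 bp for the 16 bound divergent members and 170 bp for the 37 unbound ones, while the medians for coding genes were 260 bp (bound) and 232 bp (unbound). By gap, 2 of 18 members at 0 to 100 bp and 0 of 4 at 101 to 200 bp were bound. From 201 bp on, the counts were 6 of 11 up to 300 bp, 4 of 8 up to 400 bp and 4 of 12 up to 500 bp. The coding genes in these 5 classes were bound at 20.5, 18.7, 37.6, 31.6 and 26.9%, so coding genes also had lower shares in the classes up to 200 bp. A window of 500 bp around a start covers the whole gap in every class.

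Each peak at a divergent member also lay within 500 bp of its partner's start, so it cannot be assigned to one gene of the pair. For 14 of the 16, the summit lay between the 2 starts, and in 6 of the 16 it was nearer the member's start than the partner's. Partners of the strong set were Art3, encoding an arginine methyltransferase, for mRpS10; CenG1A, encoding an Arf GTPase-activating protein, for mRpS23; and CG9004 for mRpL23. For mRpL20 the partner was Icmt, which methylates prenylated proteins, for mRpL24 betaggt-I, a subunit of a protein prenyltransferase, and for mRpS2 Mon1, which acts in endosome maturation. mRpL41 had no divergent coding partner, and nor had mRpL4.

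Partners in the weaker set had varied functions. Metabolic ones were qless (with mRpL32), which makes the side chain of coenzyme Q, and Taz (with mRpL18), the tafazzin gene of cardiolipin remodelling in mitochondria. Others were Prosbeta2 (mRpL39), a catalytic proteasome subunit, and Cdk1 (mRpS7), the mitotic kinase. Dg (mRpL34) encodes dystroglycan, Cip4 (mRpS6) a membrane-bending protein, and Apc2 (mRpS24) a negative regulator of Wingless signalling. CG5003 (mRpS22) and CG13698 (mRpS26) are named only by their annotation numbers.

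Most summits lay upstream of the members, as at other bound genes. For 17 of 18 the summit was upstream of the nearest start, with a median position of -142.5 bp and quartiles of -199 and -107 bp. For the other 1893 bound coding genes 88.3% lay upstream, with a median of -138 bp and quartiles of -220 and -75 bp, so the positions overlapped widely. Farthest upstream was mRpS23, with its summit 380 bp from its own start and 112 bp from that of CenG1A. At mRpL23 the summit was inside an intron of the gene, 84 bp downstream of the nearest annotated start. In mRpL18 it lay 95 bp upstream, in an untranslated exon of Taz, whose start is 20 bp from that of mRpL18. mRpS26 had a second, weak peak of signal 16.6 at 38 bp upstream beside its main one at 244 bp.

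**Figure D4:**
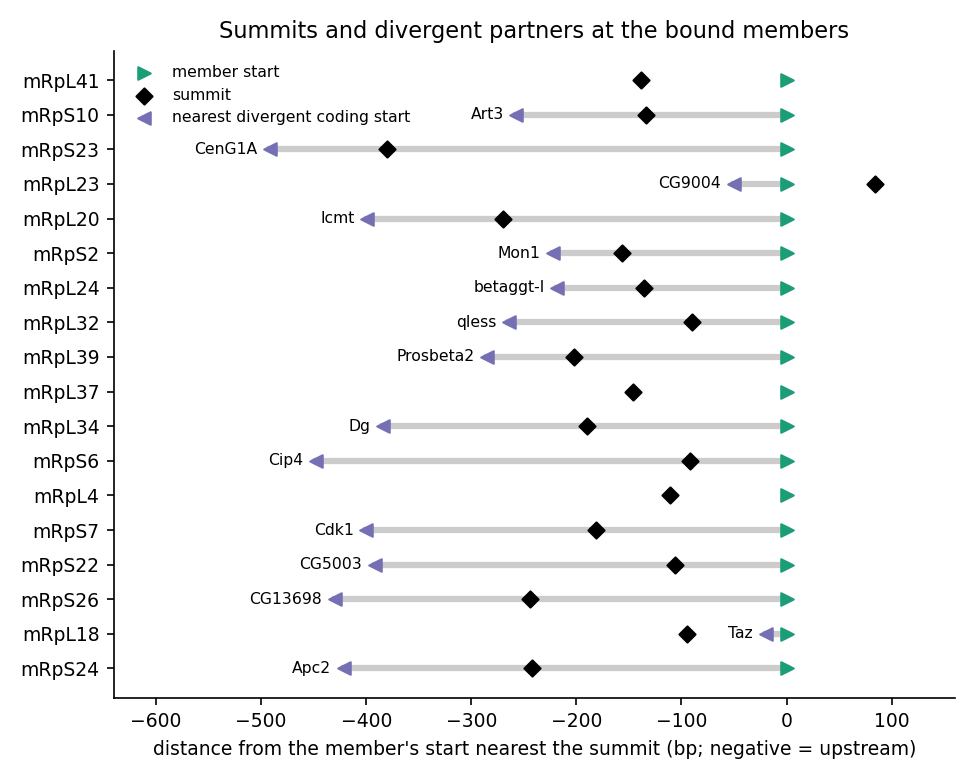
Position of the summit (diamond) and of the divergent partner's start (left-pointing triangle, named) relative to the nearest transcript start of each bound member (right-pointing triangle at 0 bp; x axis in bp, negative upstream). Wherever a partner is drawn the diamond lies on the bar between both starts, except at mRpL23 and mRpL18, which have the shortest gaps; 1 partner is not drawn.

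The summits at the members lay in sequence richer in A and T than their flanks. Over the 101 bp around the summit, A and T made up 72.9 ± 6.88% of the bases (SD, n = 18 peaks), against 50.8% at positions 500 bp away on either side, and all 18 windows exceeded their own flanks. At the other 1423 promoter peaks the window held 66.6 ± 10.2%, the flanks held 54.3%, and 81.7% of windows exceeded their flanks. The difference between summit and flank was thus 22.1 percentage points at members and 12.3 at other promoter peaks. Peaks at other divergent coding starts held 68.0 ± 9.34% (n = 572), against 73.5 ± 6.32% at the 16 divergent members. The summits were not always at the richest point nearby. At the 18 bound members, the richest 101 bp window from 500 bp upstream to 50 bp downstream of the start averaged 79.4%, against 72.9% at the summits.

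Composition varied among the members with the signal. The richest windows were those of mRpL20 and mRpL39, both at 84.2%, and the poorest those of mRpL18 (58.4%) and mRpL4 (59.4%), both weak peaks. The 7 strong members had a mean of 76.5 ± 4.56% and the 11 weaker ones 70.6 ± 7.26% (SD over peaks). Over the 18 peaks the Spearman correlation of signal with A and T content was 0.601, and over the 1423 other promoter peaks 0.340; these points share the same libraries, and the correlations are descriptions. The longest unbroken A or T run in the window, in capitals in the sequences above, had a median of 12.5 bases at members and 10 at other promoter peaks, and reached 30 at mRpL20. Whether base composition affected the recovery or mapping of these fragments was not tested.

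**Figure D5:**
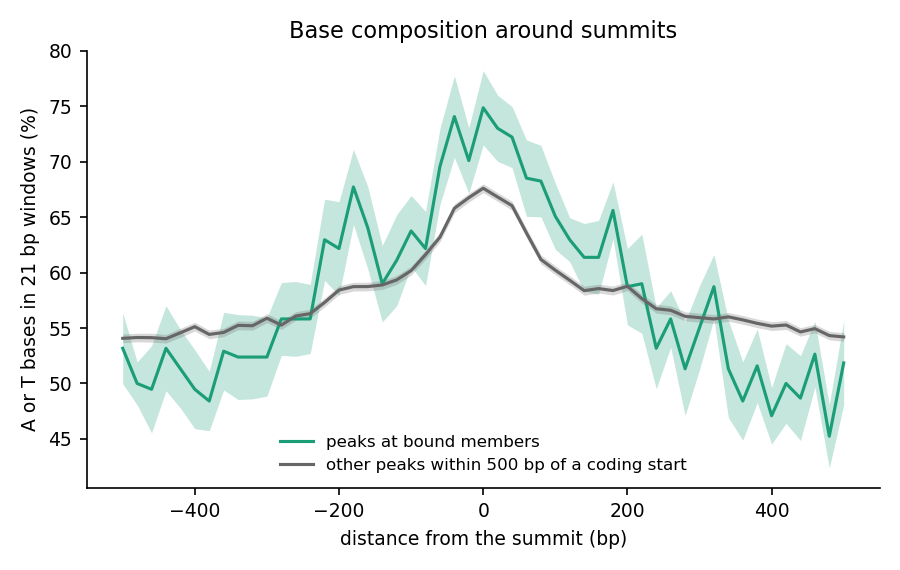
Percentage of A or T bases (y axis) in 21 bp windows by distance from the summit (x axis, bp) for the 18 peaks at bound members and the 1423 other peaks within 500 bp of a coding start; lines are means and bands are 1 standard error over peaks. Both lines peak at the summit, and the members' line is higher at the summit and lower in the outer flanks.

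Promoter composition did not clearly separate bound from unbound members. In the window from 250 bp upstream to 50 bp downstream of the 5′-most start, A and T had a median of 67.8% for bound members, 64.3% for unbound members and 62.0% for all coding genes. The ranges overlapped, 53.3 to 72.0% for bound and 42.3 to 74.3% for unbound members. When all coding genes were cut into 4 equal classes by the A and T content of the richest 101 bp window near the start, the members bound from the poorest to the richest class were 2 of 13, 1 of 14, 7 of 21 and 8 of 25. The corresponding shares of coding genes were 7.96, 11.8, 15.9 and 19.0%. So 17 of the 25 members in the richest class were not bound.

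Known promoter elements were searched in the same 300 bp window on both strands. The DNA replication-related element (DRE, TATCGATA), bound by the factor DREF at many fly housekeeping promoters, occurred in 5 of 18 bound members (mRpL20, mRpL32, mRpL39, mRpL4 and mRpS23), in 10 of 55 unbound members and in 9.36% of all coding promoters. Of the 10 elements searched, the E-box CAGCTG stood farthest above coding genes: 40 of 73 members held it (54.8%), against 17.6% of coding promoters. It did not mark the bound members, being present in 8 of 18 bound and 32 of 55 unbound ones. The BEAF-type core CGATA, which also lies within every DRE, was found in 9 of 18 and 34 of 55, against 47.3% of coding promoters.

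The M1BP core GGTCACACT was in 0 of 18 bound and 8 of 55 unbound members, against 6.04% of coding promoters. That order reversed in a wider window, from 500 bp upstream to 500 bp downstream, where it was in 5 of 18 bound members (27.8%), 16.4% of unbound members and 8.20% of coding genes. The letters TATAAA were in 8 of 18 and 26 of 55 (45.8% of coding promoters), and GAGAG in 2 of 18 and 10 of 55 (29.7%). AGATGGCG was in 0 and 1 members (0.966%), GCGCATGC in 0 and 1 (1.05%), TATATTAA in 1 and 2 (5.36%), and the NRG element in none (0.873%). Inside the 101 bp summit windows, DRE was in 0 of 18 member peaks and 2.18% of other promoter peaks, and CAGCTG in 1 of 18 and 3.23%. A match here is a run of letters, not a site.

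The DRE matches of bound members are shown with 10 bases on each side, the match in capitals, because all of them lie outside the summit windows. The matches begin 27 bp upstream of the start in mRpL32, 10 bp in mRpL20 and 32 bp in mRpL39, 209 and 9 bp in mRpS23, which has 2, and downstream of the start in mRpL4.
mRpL32 (chr3R:31252835-31252862, plus strand): tctataaacaTATCGATAgcacagctgt
mRpL20 (chr3L:13017860-13017887, minus strand): atcgatatttTATCGATAacatgctcat
mRpL39 (chr3L:14999681-14999708, minus strand): gtttgaaaaaTATCGATAtactgtttcc
mRpL4 (chr2L:16329096-16329123, minus strand): taatctagccTATCGATAgaccttaccg
mRpS23 (chr2L:13835264-13835291, minus strand): tttggactggTATCGATAgtaacataat
mRpS23 (chr2L:13835064-13835091, minus strand): actctgatggTATCGATAggcaccggct

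Related gene lists were bound to different extents. Of 38 other genes of mitochondrial gene expression, which supply replication, transcription and translation factors to the organelle, 5 were bound (13.2%), near the 13.7% of coding genes. They were mtSSB, the mitochondrial single-stranded DNA-binding protein (116 and 134 in the replicates, pool 261), ProRS-m, the prolyl-tRNA synthetase (77.8 and 64.1, pool 145), CysRS-m, the cysteinyl-tRNA synthetase (18.9 and 59.4, pool 74.7), mTerf5 (48.9 and 28.2, pool 74.6) and PolrMT, the mitochondrial RNA polymerase (23.0 and 42.2, pool 62.0). tko and bonsai, which encode mitochondrial small-subunit proteins under other symbols and are on this list, were not bound. Complex I genes, whose products are partly assembled with proteins made on these ribosomes, were bound in 5 of 40 (12.5%), with the strongest pooled signals at ND-ASHI (295), ND-24 (261), ND-MWFE (237) and ND-51 (163). The median over these 5 bound genes was 237, above the 156 of the members, and 0 of the 5 were among the 300 strongest peaks.

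Cytoplasmic ribosomal protein genes were bound far more often, in 49 of 92 (53.3%), but with a lower median signal than the members, 109 against 156. Their strongest were RpL23A (pool 561), RpS27 (369), RpS28b (287) and RpL34b (279), so only the first exceeded the fifth strongest member. Among the 300 strongest peaks were 2 of these 49 genes' peaks and 7 of the members' 18. The median summit lay 37 bp upstream in the cytoplasmic list and 142.5 bp upstream at the members, and 39.1% of the cytoplasmic list had a divergent partner against 72.6% of members.

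Among the definitions tried, only wider reach added a member to the 18. The conservative set kept 17 of the 18 (without mRpS24; 12.7% of coding genes), and peaks above the median signal kept 12 (8.59%). The own set of replicate 1 held 15 (9.88%) and that of replicate 2 held 13 (10.5%), all of them among the 18. Windows of 100, 250 and 1000 bp gave 5, 16 and 19 members (3.97, 10.5 and 16.5%), the 250 bp window losing mRpL20 and mRpS23. Counting the peak interval in place of the summit gave 19 (14.8%), and mRpS25 was the gene added there and at 1000 bp. Using only the 5′ end of the gene gave the same 18 (11.9%), as did restoring peaks that met the IDR limit but were missing from the thresholded set (14%).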

How the data were processed

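Per the labels, both libraries came from 0 to 24 h embryos and the peak lists are on dm6. The deposited files hold the authors' peaks with a signal per peak (no stated unit), a summit offset (an other value, in bases), and, in the ranked lists, a −log10 IDR that the authors capped at 5. Per the deposited readme text, the pooled lists were derived from the alignments of both replicates, and each replicate also has its own lists. The peak caller and aligner are not given in the sources used here, and depth is unknown. The authors' thresholded sets were taken as deposited; 112 pooled ranked peaks that met −log10 IDR 2 were missing from the pooled set, 0 of them at members.

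Starts came from the Ensembl annotation of the same assembly (13968 coding genes on 7 arms) and sequence from RefSeq. Python 3.11.15, numpy 2.4.6 and pandas 2.3.3 were used; the start-to-summit matching was tested on simulated summits. With 1 group there was no comparison between conditions and no p-value. Replicate values are from each replicate's ranked list (mean ± SD, n = 2). Alternatives were other peak sets, windows, partner limits and promoter windows. Named genes are all bound members, their partners, the 5 strongest unbound members, members with a summit at 500 to 1000 bp, and bound genes of the lists (4 strongest of the larger ones). Of 40 names on the mitochondrial list, 1 was a synonym of another and 1 did not match, leaving 38. The name of 1 partner gene is not reported here. Members and lists were chosen with earlier results of these data known.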

Additional observations from a re-analysis of the deposited data

How the results depend on the processing

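The count of bound members stayed within 1.5 times of 18 except for a 100 bp window, which gave 5 (3 mRpL and 2 mRpS). The mRpS count moved to 4 with peaks above the median signal, and ran from 5 to 6 when one replicate was left out; mRpL then ran from 8 to 9 and all members from 13 to 15. The median signal at members moved to 403 with peaks above the median. In the replicates' own sets it was 89.4 over 15 members (replicate 1) and 158 over 13 members (replicate 2). These 2 medians cover different members. Over all 18 members in the replicates' ranked lists the medians were 87.2 and 81.4. A divergent partner within 250 bp was found for 22.2% of bound and 38.2% of unbound members, the opposite order to 500 bp, and within 1000 bp for 100% of bound members. The excess of median promoter A and T content in bound over unbound members was 4 percentage points at 50 bp to each side, 3.7 at 500 bp upstream, 3.33 with the conservative set and 3.67 with either replicate left out. In windows of 500 bp to each side, bound members with CGATA numbered 15 (83.3%, against 78.7% of coding genes), GGTCACACT 5 (27.8 against 8.20%), TATAAA 14 (77.8 against 74.5%), GAGAG 7 (38.9 against 66.7%), TATATTAA 3 (16.7 against 12.6%) and the NRG element 1 (5.56 against 3.06%). The mitochondrial gene expression list had 2 bound genes in the conservative set, 2 above the median signal, 2 to 3 with a replicate left out and 3 at 100 bp. Cytoplasmic ribosomal protein genes numbered 26 above the median signal and 30 to 40 with a replicate left out; complex I genes numbered 2 at 100 bp and 5 to 7 with a replicate left out. The cause was not tested. No paired analysis was possible because there is 1 group. With 2 replicates, spread is poorly known, and the control library and read depth were not analysed here.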

Other observations

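At 2 unbound members the divergent partner was bound though the member was not. A partner counted as bound with a summit within 500 bp of any of its transcript starts. The peak therefore need not lie at the start that faces the member, and its position was not examined. mRpL2 starts 64 bp from FoxK, which encodes a forkhead transcription factor, and had a pooled ranked signal of 20.4 within its own window. mRpL22, on the X, starts 499 bp from if, which encodes an integrin alpha subunit, and had 29.0. The partners of the other 35 unbound divergent members were not bound either. A summit between 2 starts at most 500 bp apart counts for both genes, so such agreement is largely set by the rule. The share over other divergent coding genes is not given here.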
